A study of Mus musculus with 8 samples.

Results

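NF-κB is the family of dimeric transcription factors at the centre of inflammatory gene activation. The genes described here are 10 of the 37252 annotated mouse genes, taken as a named list of NF-κB subunits and of proteins that restrain or redirect them. The 5 subunit genes were Nfkb1, Nfkb2, Rel, Rela and Relb. The inhibitor genes were Nfkbia, Nfkbie and Tnfaip3, and the genes of the nuclear IκB proteins were Nfkbiz and Bcl3. No measured value entered the choice of the 10 genes, although earlier results of these data were known when it was made. For each gene, NFATc2 summits within 100 kb of any annotated transcription start site (TSS) were collected, together with H3K4me3 peaks that overlapped the gene or lay within 1 kb of a TSS. All 10 genes had H3K4me3 peaks in every H3K4me3 list, and 9 had at least 1 NFATc2 summit.

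In resting cells, NF-κB dimers are held in the cytoplasm by IκB proteins such as IκBα, the product of Nfkbia, and IκBε, the product of Nfkbie. Signals from pattern recognition receptors, among them dectin-1, lead to IκB degradation and release the dimers to the nucleus, where several subunit and inhibitor genes are themselves targets, so that the pathway feeds back on its own components. NFATc2, labelled NFAT1 in these samples, is a calcineurin-dependent factor of the Rel homology superfamily. H3K4me3 is a histone mark found at the start sites of active genes.

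The cells were D1, a long-term dendritic cell (DC) line from the spleen of C57BL/6 mice. NFATc2 was mapped in D1 cells carrying a V5-tagged copy of it, delivered by lentivirus together with GFP, so this map reports the tagged protein and not endogenous NFATc2. These cells received curdlan, a β-glucan ligand of dectin-1, at 10 µg/ml for 30 min. H3K4me3 was mapped in D1 cells that were non-treated (NT), treated for 2 h with curdlan at 10 µg/ml, or treated for 2 h with curdlan and FK506, a calcineurin inhibitor that prevents nuclear entry of NFAT. The labels give no FK506 dose for these libraries, and no NFATc2 map with FK506 or without curdlan was analysed here. Each of the 4 conditions had 1 ChIP library and 1 input library, so library and condition cannot be told apart and no p-value was computed between conditions.

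The ChIP libraries held between 14377535 tags (NFATc2) and 21289349 tags (H3K4me3 with curdlan). Peaks held 57.9% of the tags in NT, 52.8% after curdlan and 51.3% after curdlan and FK506, and the input of the NT library was the deepest. Of the 9 dendritic and myeloid marker genes found in the annotation, 8 carried an H3K4me3 peak within 1 kb of a TSS in all 3 conditions, the exception being Flt3, whereas 1 of 13 marker genes of other cell types (Lck) did. When a peak anywhere in the gene was also accepted, as for the levels below, these counts were 9 of 9 and 3 of 13, with the B-cell genes Cd79a and Pax5 added. The marker Spi1 was not found under that name. The levels below are H3K4me3 tags per 1000000 ChIP tags of the library (RPM), summed over the peaks of a gene. Intervals are exact 95% intervals for counting error alone. Ratios are log2 values relative to the median gene with a peak in both lists, because that gene itself shifted by −0.13 between NT and curdlan and by −0.04 between curdlan and curdlan with FK506. A gene was called higher or lower at 1.5-fold on this scale. A gain could mean more cells with the mark or more mark per cell, which bulk chromatin does not separate, and H3K4me3 is not a measure of RNA or protein.

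The sequences at the NFATc2 summits within 16510 bp of a TSS of the genes are given first, because they show what DNA the tagged factor was recovered with. This choice departs from the plan, which named the strongest summit by tags at each gene. Relb, Nfkbie, Bcl3 and Tnfaip3 have no summit in that range. All are from mouse build mm9, read 5′ to 3′ on the strand of the gene, within 100 bp of the summit and cut where a UTR begins. Capitals mark the core NFAT motif GGAAAA on either strand, the AP-1 motif TGANTCA, and matches to the κB consensus, the binding sequence of NF-κB dimers.
The Nfkb2 promoter summit lay 29 bp upstream of the TSS with 156 tags (chr19:46379098-46379226, plus strand).
Nfkb2 promoter: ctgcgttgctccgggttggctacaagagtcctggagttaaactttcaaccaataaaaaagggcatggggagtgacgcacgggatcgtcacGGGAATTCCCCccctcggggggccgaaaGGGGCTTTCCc
Nfkbia had one summit with 48 tags at 108 bp upstream of its TSS (chr12:56593642-56593842, minus strand) and one 2523 bp downstream of it, in an intron, with 70 tags (chr12:56591011-56591211, minus strand).
Nfkbia promoter: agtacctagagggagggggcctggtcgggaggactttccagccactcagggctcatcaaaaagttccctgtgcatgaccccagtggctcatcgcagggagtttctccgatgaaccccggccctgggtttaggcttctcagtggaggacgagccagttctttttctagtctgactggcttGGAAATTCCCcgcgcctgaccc
Nfkbia intron: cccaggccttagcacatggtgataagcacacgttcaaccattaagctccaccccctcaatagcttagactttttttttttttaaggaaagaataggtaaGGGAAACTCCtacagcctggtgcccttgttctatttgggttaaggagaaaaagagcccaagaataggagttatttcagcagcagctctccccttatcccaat
Rel had summits in introns 8125 bp from its TSS with 110 tags (chr11:23662745-23662945, minus strand) and 16510 bp from it with 182 tags (chr11:23654360-23654560, minus strand).
Rel intron, near site: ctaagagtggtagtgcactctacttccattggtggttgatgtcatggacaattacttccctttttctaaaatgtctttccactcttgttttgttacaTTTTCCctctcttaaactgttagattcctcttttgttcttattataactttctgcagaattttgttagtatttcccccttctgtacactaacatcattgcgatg
Rel intron, far site: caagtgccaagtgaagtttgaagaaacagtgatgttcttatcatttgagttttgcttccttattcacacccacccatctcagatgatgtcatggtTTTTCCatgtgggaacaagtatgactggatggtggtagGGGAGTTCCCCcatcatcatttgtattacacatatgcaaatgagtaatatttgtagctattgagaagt
Rela had a summit with 49 tags at 722 bp upstream of a TSS (chr19:5636661-5636861, plus strand).
Rela upstream: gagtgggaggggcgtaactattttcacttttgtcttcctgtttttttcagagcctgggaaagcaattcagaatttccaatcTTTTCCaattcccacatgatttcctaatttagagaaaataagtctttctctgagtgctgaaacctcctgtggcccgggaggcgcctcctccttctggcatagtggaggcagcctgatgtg
Nfkb1 had one 64 bp upstream of an internal TSS, in an exon of a noncoding transcript, with 98 tags (chr3:135271198-135271398, minus strand).
Nfkb1 internal start: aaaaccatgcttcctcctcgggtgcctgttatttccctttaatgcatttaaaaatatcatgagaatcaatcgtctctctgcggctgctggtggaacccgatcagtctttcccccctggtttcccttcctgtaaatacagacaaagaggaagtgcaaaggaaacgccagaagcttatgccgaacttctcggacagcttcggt
Nfkbiz had one 901 bp downstream of an internal TSS, in an intron, with 62 tags (chr16:55821250-55821450, minus strand).
Nfkbiz intron: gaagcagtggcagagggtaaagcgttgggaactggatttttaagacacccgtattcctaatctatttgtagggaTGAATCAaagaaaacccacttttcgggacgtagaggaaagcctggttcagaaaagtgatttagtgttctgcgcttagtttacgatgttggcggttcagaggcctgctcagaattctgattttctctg

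At the Nfkb2 promoter the capitals hold 3 matches to the κB consensus, of which a pair overlap each other, and the nearest is centred 4.5 bp from the NFATc2 summit. The intronic Nfkbia site has a κB match 3.5 bp from its summit, and the Nfkbia promoter site has one at 83.5 bp. The far Rel site carries overlapping κB matches at 37.5 bp together with a GGAAAA 2.5 bp from the summit. The near Rel site has a GGAAAA centred 0.5 bp from the summit and Rela has one at 16.5 bp. The Nfkbiz site has a TGANTCA match at 23 bp, and the site at the internal Nfkb1 start has none of these motifs in the window.

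Over all 26 NFATc2 summits within 100 kb of the genes, both strands searched, a κB consensus match lay within 100 bp at 4 summits, compared with 3.46% of the 9438 NFATc2 summits in the list. All 4 are among the sites printed above, so the printed sequences overstate how common the match was. The strongest summits by tags at Nfkb1, Rel, Relb, Nfkbie, Nfkbiz and Bcl3 are not printed and had no κB match in the window. GGAAAA was present at 10 summits, against 45.6% of all summits, and TGANTCA at 6, against 21.8%. No GGAAAA match overlapped a κB match. These letters describe the DNA under the summits and do not show which protein bound them.

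NFATc2 summits lay close to the start sites of Nfkb1, Nfkb2, Rela, Nfkbia and Nfkbiz, within the gene body of Rel, and far from Relb, Nfkbie, Tnfaip3 and Bcl3. A summit was called within 1 kb of a start site at 5 of the 10 genes (Nfkb1, Nfkb2, Rela, Nfkbia and Nfkbiz), where 3.77% of all annotated genes and 9.41% of genes with an H3K4me3 peak with curdlan had one. With Rel the count was 6 within 10 kb (background 13.2% and 26.5%), and it was also 6 within 30 kb (26% and 44.5%). Within 100 kb it was 9, beside 49.2% of annotated genes and 73.8% of genes with H3K4me3, so at that distance a summit is the usual state of a marked gene. Genes with more annotated start sites, such as Nfkb1 with 8, have more positions at which a summit can be near. Most of the summits within 1 kb were weak calls. The deposited p-values were 4.23e-06 for Nfkb2, 5.79e-06 for Rela, 2.42e-07 for Nfkbia and 1.07e-07 for Nfkbiz. Their enrichments, from 6.6-fold to 10.8-fold, lay below the median of 13.4 over all summits. The Nfkb1 summit, at an internal start site, had a p-value of 4.91e-14 and 13.8-fold enrichment.

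**Figure D1:**
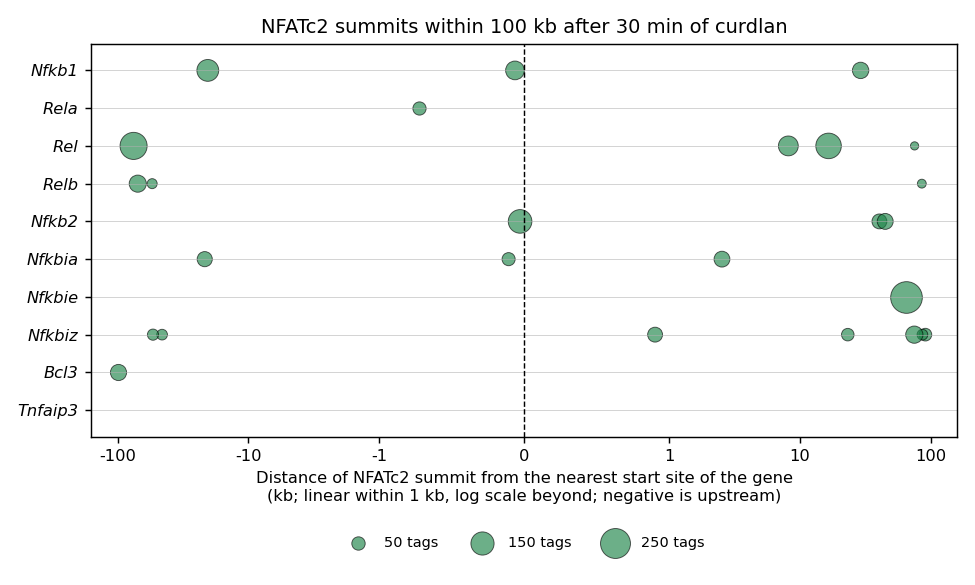
NFATc2 summits within 100 kb of the 10 genes after 30 min of curdlan, in 1 ChIP library. The horizontal axis gives the distance to the nearest start site of the gene in kb (negative is upstream; linear within 1 kb and logarithmic beyond) and the area of each circle the number of tags. Nfkb1, Nfkb2, Rela, Nfkbia and Nfkbiz have a circle within 1 kb, Relb, Nfkbie and Bcl3 have circles only beyond 50 kb, and Tnfaip3 has none.

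Among the subunit genes, Nfkb2, which encodes the p100 precursor of p52, had the summit closest to a TSS. The summit base overlapped no annotated gene and lay inside the H3K4me3 peak of all 3 conditions, but the NFATc2 peak around it covered the TSS. Although it held 156 tags, its enrichment over the local background was 10.8-fold and its p-value 4.23e-06, close to the limit of 1e-05 used for the list. A pair of further summits lay 40440 and 44790 bp downstream inside another gene, Tmem180, with 62 and 71 tags.

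Nfkb1 encodes the p105 precursor of p50. Its summit at the internal TSS had an enrichment of 13.8-fold and fell within a small H3K4me3 peak that was present in every condition, with 9.0 RPM in NT, 8.36 with curdlan and 7.70 with FK506. The H3K4me3 peak with FK506 was called at an FDR of 11.5%. The other summits were an intronic one 20472 bp upstream of the nearest TSS with 133 tags and one 29045 bp downstream inside Manba with 75 tags. None was called within 10 kb of the main Nfkb1 promoter peak.

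Rel encodes c-Rel, a subunit prominent in lymphoid and myeloid cells. Its 4 summits held 516 tags in all, the highest sum of the 10 genes. The most strongly enriched lay 75715 bp upstream, with 205 tags and 50.8-fold enrichment, but the nearest gene to that position was Papolg. The far intronic site was enriched 21.6-fold and lay in no H3K4me3 peak, whereas the near intronic site, with 8.54-fold enrichment, lay inside the Rel H3K4me3 peak of the curdlan library and in none of the other 2. The fourth, with 19 tags, was 75159 bp downstream inside Pus10.

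Rela encodes p65, a subunit of the canonical pathway, and Relb encodes the RelB subunit of the noncanonical pathway. The 1 summit of Rela, 8.59-fold enriched with a p-value of 5.79e-06, was in the H3K4me3 peak of all 3 conditions. Relb had no summit nearer than 54556 bp. Its 3 summits held 28, 82 and 22 tags, and the one with 82 tags lay 601 bp from a start site of Apoe.

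Of the inhibitor genes, Nfkbia had 3 summits, with 48, 70 and 64 tags. The promoter and intronic summits had enrichments of 6.94-fold and 10.1-fold and were inside H3K4me3 peaks of every condition, and the one 21610 bp upstream, in none, was the most enriched at 20.5-fold. Nfkbie had a single summit, 64265 bp downstream, with 280 tags and 27.5-fold enrichment; its nearest protein-coding gene was Gm7325. Tnfaip3, which encodes the ubiquitin-editing enzyme A20, had no summit within 100 kb, and the nearest in the list was 103.5 kb upstream with 45 tags.

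Nfkbiz and Bcl3 encode IκBζ and Bcl-3, which act in the nucleus on promoters bound by p50 or p52. Nfkbiz had 7 summits, the most of the 10 genes, but all were modest, with 32 to 83 tags. Only the one at the internal TSS, 6.6-fold enriched, lay within H3K4me3. Bcl3 had 1, at 99394 bp and 1004 bp from a start site of Pvr.

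The 26 summits had a median of 67 tags, compared with 63 over all 9438 summits, and a median fold enrichment of 12.6, compared with 13.4. Of the 26, 8 had a p-value of 1e-10 or less, beside 50.4% of all summits. Of the 26, 12 were upstream and 14 downstream of the nearest TSS, 6 were inside the gene itself, and for 14 the nearest protein-coding gene was the listed gene. With curdlan 10 summits lay inside an H3K4me3 peak, beside 23.3% of all summits. The count was 8 in NT (background 23.8%) and 9 with FK506 (background 22.5%).

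H3K4me3 with curdlan was next compared with NT, which asks whether 2 h of dectin-1 stimulation changed the mark at these genes. All 10 genes lay above the median gene (background 50%), with a median log2 ratio of 0.60 and a range from 0.07 to 1.72. The mark was higher by at least 1.5-fold at 5 genes, namely Tnfaip3, Nfkb1, Rel, Nfkb2 and Nfkbia, where 3.77% of 13019 genes were, and 0 were lower (background 1.87%). At 2-fold 2 genes passed (Tnfaip3 and Nfkb1; background 1.38%). Since 7 of the genes were among the 25% of marked genes with the highest level in NT, they were also set beside those alone, and 4 of the 7 were higher, against 2.35%. Without centring on the median gene 4 passed, as Nfkbia was then at 0.56, and Rela was below 0 at −0.06. The call depended on the measure. Per kb of peak 1 gene was higher by 1.5-fold (Tnfaip3; background 1.74%) and 0 were lower (background 1.28%). By the fold enrichment that MACS gives for the highest peak 1 was higher (Rel; background 13.9%) and 2 were lower (Relb and Nfkbiz; background 14.3%). These calls too are relative to the median gene, and the fold enrichment of Nfkbiz itself went only from 79.3 in NT to 72.9 with curdlan.

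**Figure D2:**
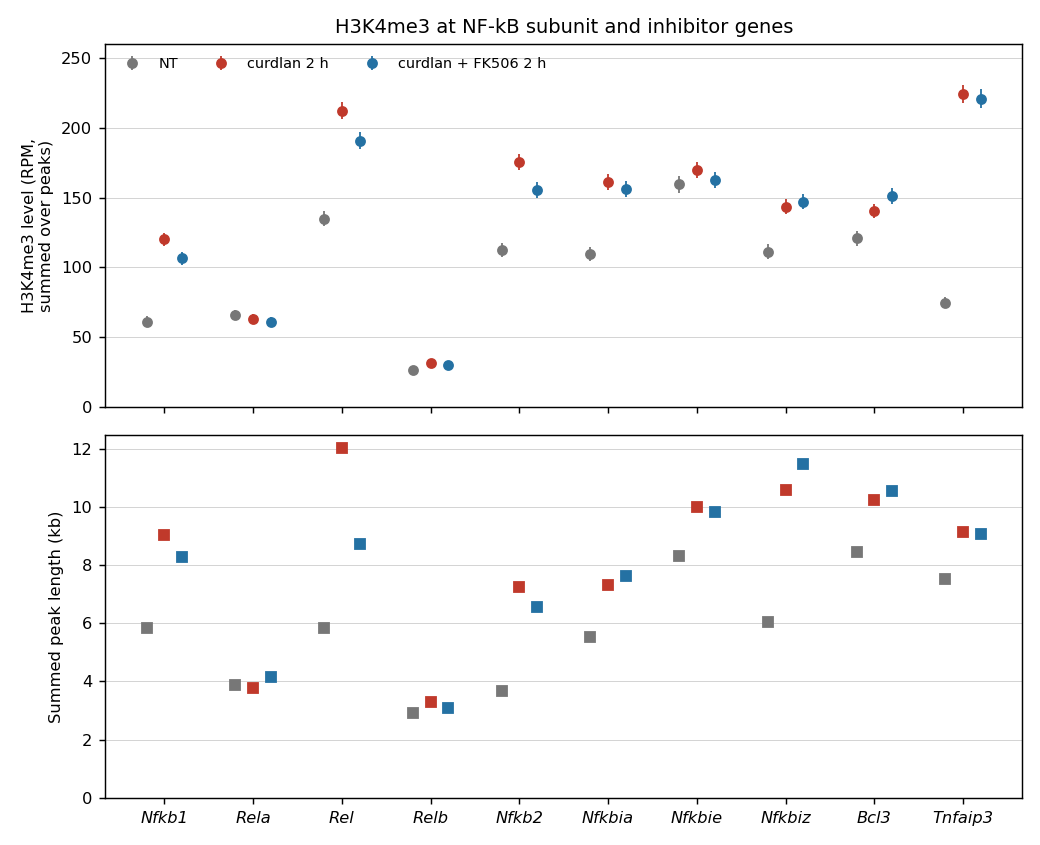
H3K4me3 at the 10 genes in the NT, curdlan and curdlan with FK506 libraries. The upper panel gives RPM summed over the peaks of each gene, with bars for the exact 95% counting interval of the 1 library, and the lower panel the summed peak length in kb. The curdlan and FK506 points of Tnfaip3 lie at 224 and 221, far above 74.7 in NT, whereas the 3 points of Rela lie within 61.2 to 65.8.

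Tnfaip3 differed the most. Its level was 74.7 RPM in NT (interval 70.6 to 79.0), 224 after curdlan (218 to 231) and 221 after curdlan plus FK506 (214 to 228). The curdlan and FK506 intervals overlapped each other and neither came near that of NT. The ratio of curdlan to NT was 1.72 on the log2 scale (1.63 to 1.81), which placed it above 99.7% of genes, although no NFATc2 summit was found within 100 kb. A pair of NT peaks, of 67.3 and 7.38 RPM, was replaced by a single peak in both stimulated libraries.

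The peaks of Tnfaip3 were 7527 bp long in NT and 9151 bp with curdlan, so its higher level was carried by density. It had 9.93 RPM per kb in NT, 24.5 with curdlan and 24.3 with FK506. Relative to the median gene the density ratio was 1.49 on the log2 scale and the length ratio 0.24.

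Nfkb1 had 61.0 RPM in NT, 120.1 with curdlan and 106 with FK506, a log2 ratio of curdlan to NT of 1.11 (1.00 to 1.21). The change was at the main promoter. There, a peak from 274 to 3026 bp downstream of the most upstream TSS and a weak one across the TSS in NT were a single peak from 1066 bp upstream to 5962 bp downstream with curdlan. That peak held 112 RPM, against 49.3 and 2.70 for the NT pair, of which the weak one had an FDR of 10.4%. Both length and density were above the median gene, by 0.58 and 0.53 on the log2 scale.

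Rel had the broadest domain with curdlan. Its level was 135 RPM in NT, 212 with curdlan and 191 with FK506, a log2 ratio of curdlan to NT of 0.79 (0.71 to 0.86). Its H3K4me3 extended over 5841 bp in NT, from 1565 bp upstream to 4275 bp downstream of the TSS, and over 12018 bp with curdlan, from 2291 bp upstream to 9726 bp downstream. The added stretch in the gene body covered the near intronic NFATc2 summit.

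Nfkb2 was similar in form, with 112 RPM in NT, 176 with curdlan and 155 with FK506 and a ratio of 0.78 (0.70 to 0.86). The length of its peak was 3669 bp in NT, 7250 bp with curdlan and 6547 bp with FK506, and the edge in the gene body moved from 1963 to 4866 bp with curdlan. For Rel and Nfkb2 the density relative to the median gene was not higher, at −0.20 and −0.16 on the log2 scale, so their higher sums came with longer peaks. A peak that takes in weaker flanks has a lower mean density even where its centre is unchanged, and the lists hold no tags over a fixed window.

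Relb and Rela stood apart from the other subunits. Rela, the gene of p65, had 65.8 RPM in NT, 63.0 with curdlan and 61.2 with FK506, and its ratio of 0.07 had a counting interval that included 0 (−0.05 to 0.19). The length of its peak stayed between 3780 and 4141 bp. Relb, which had the lowest level per kb of the 10 genes, had 26.3, 31.8 and 30.1 RPM in the same order and a ratio of 0.40 (0.23 to 0.58). By fold enrichment Relb went the other way, from 86.8 in NT to 49.3 with curdlan, a relative log2 value of −1.54.

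**Figure D3:**
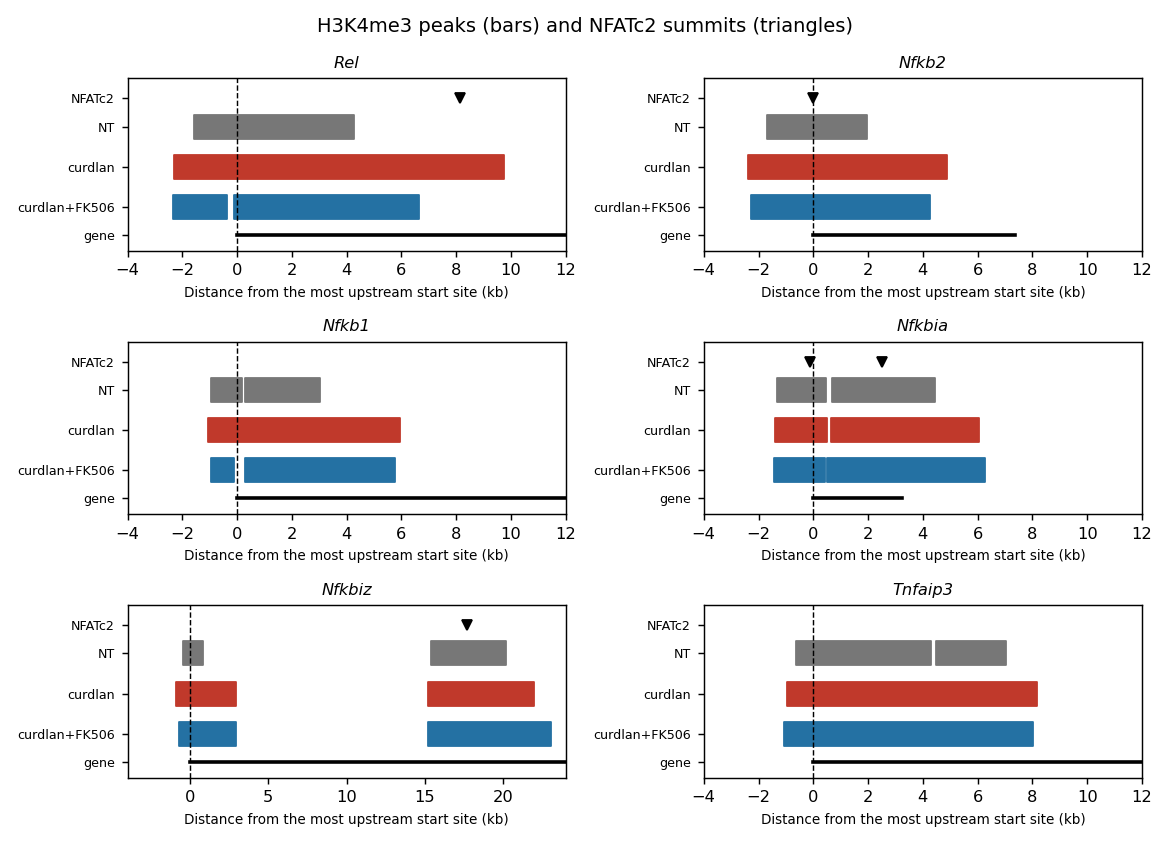
H3K4me3 peaks around the most upstream start site of 6 of the genes, with distance in kb on the horizontal axis and negative values upstream. Grey, red and blue bars are peaks called in the NT, curdlan and curdlan with FK506 libraries, triangles are NFATc2 summits within the plotted range and the black line is the gene. The red Rel bar runs from −2291 to 9726 bp and takes in the triangle at 8125 bp, which the grey and blue bars do not reach, and Tnfaip3 has no triangle.

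Nfkbia, the gene of the principal inhibitor, had 109 RPM in NT, 161 with curdlan and 156 with FK506, a ratio of 0.69 (0.61 to 0.77). Its mark was in 2 peaks on either side of a gap near the TSS. The downstream peak held 82.8 RPM in NT and 143 with curdlan, and the upstream one, which overlaps the promoter NFATc2 summit, held 26.5 and 17.6. The higher level of Nfkbia was thus located downstream of the start site. Its fold enrichment was 59.1 in NT and 82.8 with curdlan, higher in itself but at −0.24 on the log2 scale relative to the median gene.

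Nfkbie had 159 RPM in NT, 169.5 with curdlan and 163 with FK506, with a ratio of 0.22 (0.15 to 0.29). Part of this belongs to a neighbour, since a second peak that overlaps the end of Nfkbie also covers the start site of Slc35b2. The promoter peak alone held 124, 140.0 and 136 RPM. The ratio with peaks within 1 kb of a TSS alone was 0.30.

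For the nuclear IκB genes, Nfkbiz had 111 RPM in NT, 143 with curdlan and 147 with FK506, a ratio of 0.50 (0.42 to 0.58) that fell short of 1.5-fold. The greater part was at an internal start site with the NFATc2 summit, where the peak held 107, 134 and 139 RPM. The peak at the most upstream start site was weak, with 3.72, 9.02 and 8.27 RPM. Its total length was 6037 bp in NT and 10586 bp with curdlan, and its relative density was −0.26.

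Bcl3 had 121 RPM in NT, 140.4 with curdlan and 151 with FK506, and a ratio of 0.35 (0.27 to 0.43). Its mark was split over a promoter region and a second region inside the gene that also covers the start site of Gm16174. The second region held 77.1, 72.3 and 72.3 RPM, with edges drawn differently in each list.

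By length, 4 genes were at least 1.5-fold longer with curdlan than in NT, beside 3.49% of all genes, without adjustment for the median gene, whose length changed 1.03-fold. They were Rel at 2.06-fold, Nfkb2 at 1.98-fold, Nfkbiz at 1.75-fold and Nfkb1 at 1.55-fold. Relative to the median gene Nfkb1 lay at 0.58 on the log2 scale, just under the limit. At any size, 9 of the 10 were longer, the exception being Rela, beside 63.3% of all genes.

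**Figure D4:**
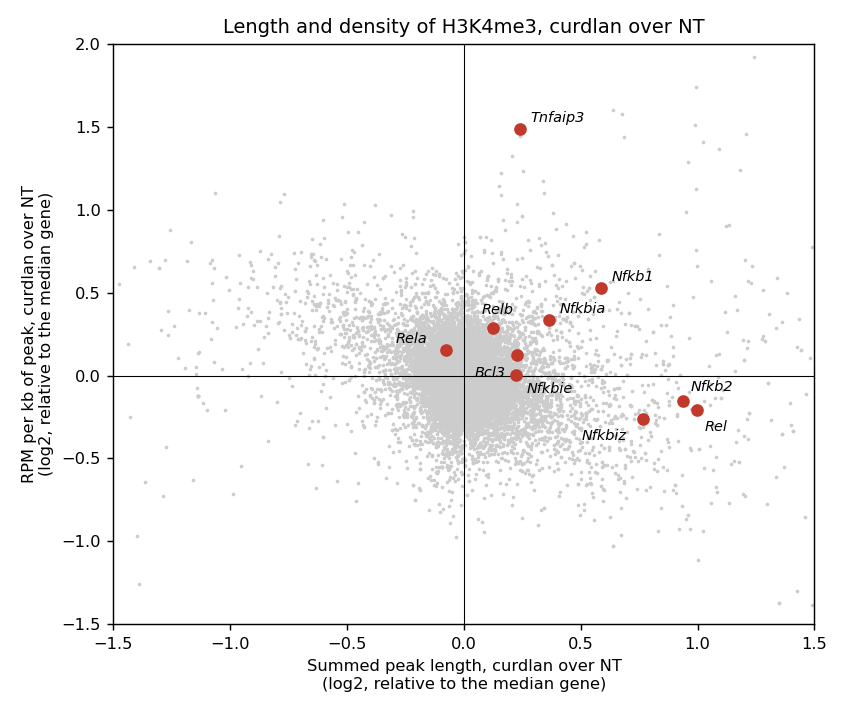
Length and density of H3K4me3 with curdlan relative to NT, for 12883 genes with peaks in all lists (grey; 37 lie outside the axes) and the 10 genes (red). Both axes are log2 ratios relative to the median gene, of summed peak length and of RPM per kb of peak. Tnfaip3 stands high at 0.24 in length and 1.49 in density, while Rel, Nfkb2 and Nfkbiz lie to the right with densities from −0.26 to −0.16.

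When levels were set per kb of peak, the order of the genes changed with stimulation. In NT, Nfkb2 was highest at 30.6 RPM per kb and Rel followed at 23.1, with counting intervals apart. Nfkbia, Nfkbie, Nfkbiz and Rela, from 19.8 to 17.0, each overlapped the next, and Bcl3 stood alone at 14.3. Nfkb1, Tnfaip3 and Relb were lowest at 10.4, 9.93 and 8.96, each again overlapping the next. The median over genes with a peak was 14.0 in NT, 12.4 with curdlan and 12.4 with FK506.

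With curdlan Tnfaip3 moved from the ninth place to the first, at 24.5, and overlapped Nfkb2 at 24.2. Nfkbia at 22.0 stood apart from its neighbours. Rel, Nfkbie and Rela, at 17.7, 17.0 and 16.7, overlapped in turn, as did Bcl3, Nfkbiz and Nfkb1, at 13.7, 13.6 and 13.3. Relb remained last at 9.64.

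Curdlan with FK506 was then compared with curdlan alone, which asks whether calcineurin inhibition altered the mark. This comparison and the one above use the same curdlan library, so an error in that library would enter both. None of the 10 genes was lower by 1.5-fold (background 1.45% of 12996 genes) or higher (background 0.592%). Their median log2 ratio was −0.01 and the range ran from −0.13 to 0.15.

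Nfkb2, Nfkb1 and Rel had the lowest ratios, at −0.13 (−0.20 to −0.06), −0.13 (−0.22 to −0.05) and −0.11 (−0.17 to −0.05), and were the ones whose counting interval lay below 0. With only peaks at an FDR of 5% or less, the ratio of Nfkb1 was −0.24. That limit removed its internal peak with FK506 (7.70 RPM, FDR 11.5%) but kept the matching peak with curdlan (8.36 RPM, FDR 0.05%). Bcl3 at 0.15 (0.07 to 0.22) and Nfkbiz at 0.08 (0.00 to 0.15) had intervals above 0. Tnfaip3 was at 0.02 (−0.04 to 0.08). Library to library variation is not included in these intervals, and differences of this size cannot be assigned to FK506 with 1 library each.

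The form of the Rel peak differed more than its level. With FK506 the Rel domain was called as 2 peaks, from 102 bp upstream to 6642 bp downstream of the TSS and from 2332 to 364 bp upstream, with 170.2 and 20.4 RPM. The summed length was 8714 bp, 3304 bp shorter than with curdlan, and the ratio of length was lower than in all but 3.69% of genes. The near intronic NFATc2 summit was outside these peaks. The split was not particular to Rel. The Nfkb1 promoter peak was also split with FK506, into parts from 272 to 5754 bp downstream and from 946 to 100 bp upstream. At Bcl3 the promoter was instead split with curdlan and joined with FK506. By fold enrichment Rel was at −0.83 and was the 1 gene called lower on that measure (background 13.9%), and Relb, at 0.79, was called higher (background 13.9%).

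The third pair, curdlan with FK506 over NT, shares its libraries with both of the others, so its values are given only beside theirs. By 1.5-fold 5 genes were higher, beside 3.02% of 12997 genes, and 0 lower (background 1.95%), and the median of the 10 was 0.61. The ratios were 1.74 for Tnfaip3, 0.98 for Nfkb1, 0.69 for Nfkbia, 0.68 for Rel and 0.65 for Nfkb2. Nfkbiz, at 0.58, was just under the limit, and Rela was at 0.07.

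Other genes of the pathway were examined as 3 lists, chosen like the 10 genes with earlier results known. Of 23 regulators upstream of NF-κB, 22 were found in the annotation and Syk was not analysed here. With curdlan, 2 of the 21 with peaks in both lists were higher by 1.5-fold and 0 were lower, with a median of 0.01, beside 3.77% of all genes higher and 1.87% lower. These were Traf6, a ubiquitin ligase, at 0.76 and Malt1, the paracaspase of the CARD9 complex, at 0.75. With FK506 1 of 22 was lower (background 1.45%), Ikbke at −0.61, at a low level of 3.95 RPM with curdlan and 2.52 with FK506 and no peak in NT. Clec7a, which encodes dectin-1, was at −0.24 with curdlan.

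Among 15 other inhibitors and IκB proteins, 4 were higher with curdlan and 0 lower (background 3.77% and 1.87%), with a median of 0.30. They were Nfkbib, the gene of IκBβ, at 1.11, the ribonuclease gene Zc3h12a at 0.93, and Tnip3 and Tnip1, whose products bind A20, at 0.82 and 0.66. None of the 15 passed 1.5-fold in either direction with FK506 over curdlan.

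Of 24 known NF-κB target genes, 15 had peaks in both lists, and 9 of those were higher with curdlan and 0 lower (background 3.77% and 1.87%), with a median of 1.27. Cd83, a DC maturation marker, had the largest ratio at 3.15, followed by the chemokine genes Ccl3 at 2.25, Cxcl2 at 2.04 and Ccl4 at 1.75. The others were Gadd45b and Traf1, both at 1.31, Cd40 at 1.28, and the survival genes Cflar and Bcl2l1 at 1.27 and 0.87. Ptgs2 had a peak with curdlan only, of 3.71 RPM. Il1b, Il6, Il12b, Cxcl1, Ccl5, Csf2, Nos2 and Vcam1 had no peak in any condition, so the counts above describe only the target genes with a called peak. A gene without a called peak may still carry some of the mark. For Il12b the paper reports H3K4me3 enrichment with curdlan, lost with FK506, in its ChIP-seq tracks. With FK506 over curdlan none of the 15 passed 1.5-fold, and Ccl3 and Ccl4 were lowest at −0.38 and −0.37.

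The genes whose pair of ratios was nearest to that of Tnfaip3, among 11188 protein-coding genes with peaks in all 3 libraries, were Slc25a11, Gpr126, Bsn, Dot1l and Rab20. Slc25a11 was the nearest, at a distance of 0.05 on the log2 scale, with 68.0, 212 and 207 RPM in NT, curdlan and FK506. The other 4 had distances from 0.08 to 0.17. Likeness over 3 libraries is a description of these values only.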

How the data were processed

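D1 cells were profiled by ChIP-seq in 4 experiments, each with 1 ChIP library and 1 input library (8 samples), for NFATc2-V5 with curdlan and for H3K4me3 in NT, curdlan and curdlan with FK506. Groups came from the labels. Single-end reads were aligned by the authors to mm9 using Bowtie, and peaks were called library by library against the matching input. The file headers name MACS 1.4.2, a p-value limit of 1e-05, at most 1 tag at a position, and a band width of 300 bp (NFATc2) or 1000 bp (H3K4me3). No replicates were pooled.

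The deposited lists give a count of tags for each peak, without normalization. The fold enrichment, as deposited, is a ratio of tags at the summit to the local background predicted by MACS. The deposited FDR is a percent, estimated by the authors' caller with ChIP and input exchanged, and the deposited p-value is a score, −log10 p multiplied by 10.

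Here the tags of the peaks of a gene were summed and scaled to 1000000 ChIP tags of the header total (RPM). NFATc2 had a total of 14377535 tags, and the H3K4me3 libraries had 16662316 (NT), 21289349 (curdlan) and 19468498 (curdlan with FK506). Log2 ratios were centred on the median gene with a peak in both lists and called at 1.5-fold. Exact Poisson intervals (levels) and exact binomial intervals (ratios) at 95% cover counting error only. Without replicates no test between conditions was made, and the share of all genes called is given as background. Genes came from the GENCODE M1 annotation of NCBI build 37, which is mm9. Summits were placed by counting the deposited offset from the start of the peak, with the start as the first base. The ratio calculation was tested on simulated data with planted changes. Python 3.11.15, numpy 2.4.6, pandas 2.3.3 and scipy 1.17.1 were used.

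The 10 genes and the other lists were chosen with earlier results of these data known. The genes named were all 10 members, other pathway genes past 1.5-fold in curdlan over NT or in FK506 over curdlan or with a peak in 1 condition and none in another, and the 5 genes most like the member with the largest ratio. Clec7a, Ccl3 and Ccl4 for FK506, and the target genes with no peak in any condition are outside this rule and were named after their values were seen. Alternatives varied the p-value and FDR limits, the windows, the centring, the measure and the fold limit.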

Additional observations from a re-analysis of the deposited data

How the results depend on the processing

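The number of genes with an NFATc2 summit was 9 within 100 kb. Of the 26 summits, 8 were left at a p-value of 1e-10 or less, 12 within 30 kb and 7 within 10 kb. The median log2 ratio of the 10 genes for curdlan over NT, 0.60, was 0.46 when not centred, 0.089 by the fold enrichment of the highest peak and 0.14 per kb of peak. The 5 genes higher with curdlan became 1 by fold enrichment, 1 per kb of peak and 2 at a limit of 2-fold, and 2 genes were lower by fold enrichment. With FK506 over curdlan 1 gene was lower and 1 higher by fold enrichment. The 4 longer genes became 1 at a limit of 2-fold, an alternative chosen after seeing the data, as were the other alternatives for length and the centring on the 25% of genes with the highest level in NT. The 5 higher genes were 4 without centring and 5 with peaks within 1 kb of a TSS only, with a p-value of 1e-10 or less, with an FDR of 5% or less and with that centring. Over 6 alternatives and 10 genes, 53 of 60 log2 ratios of curdlan over NT were positive and 7 negative, and of 60 for FK506 over curdlan 2 passed 1.5-fold, in a range from −0.83 to 0.79. The negative ratios were those of Rel (−0.20), Nfkb2 (−0.16) and Nfkbiz (−0.26) per kb of peak, of Nfkbia (−0.24), Relb (−1.54) and Nfkbiz (−0.85) by fold enrichment, and of Rela (−0.06) when not centred. All but that of Rela are relative to the median gene. Per kb values can fall where a peak is drawn longer over weaker flanks, but Nfkb1, Nfkbia and Tnfaip3 were both longer and higher per kb. The cause of these changes was not tested. No paired analysis was possible because the labels give no replicate numbers and each condition had 1 library.

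With 1 library per condition the precision is that of counting, and the depth of input differed between conditions, from 9309800 to 12085435 tags for H3K4me3, which enters the peak calls and the fold enrichment.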
